A study of Spongilla lacustris with 18 samples.

Results

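The genes described here are 197 genes of the freshwater sponge Spongilla lacustris that carry no name and that stood highest after 4 h in sponges given only the solvent DMSO. They were taken from a count table of 39562 genes, of which 29753 bear no name beyond an identifier of the assembled transcriptome and 9809 bear an annotation. A gene entered when its mean over the 3 DMSO 4 h libraries was at least 2 CPM (counts scaled to a common library total) and at least 3 times its mean in both the DMSO 1 h and the DMSO recovery libraries. The DMSO values therefore chose the genes and are given as description with no test. The tryptamine libraries took no part in the choice, and comparisons among them are tested. The spread in these tests was estimated from all 18 libraries, the DMSO libraries among them.

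The libraries came from whole wild type juvenile sponges, grown in M-medium for 9 days at 18 °C. Treated sponges received 37.5 µM tryptamine, and vehicle sponges received 0.03% DMSO. The labels used here give no DMSO content for the treated sponges. Each treatment was sampled after 1 h, after 4 h, and after 4 h followed by washout and 24 h of recovery, which gave 6 groups of 3 polyA RNA libraries. The labels number the replicates but do not say that they were separate cultures, so that p-values measure only the spread between these samples, which may be technical.

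Sponges have no neurons or muscle, and contract their water canals through sheets of epithelial cells. Tryptamine is a trace amine made from the amino acid tryptophan, and DMSO is a solvent that carries small molecules into water. In an identifier such as c101728-g2, the first number marks a component of the assembly, a group of related transcripts, and the second a gene within it. A gene can lack a name because its protein resembles no known one, because its transcript codes for none, or because the assembled piece covers too little of a longer transcript. The function of the 197 genes is therefore not given.

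The libraries held between 11379345 and 23769406 counted read pairs, and the next highest held 15798197. In these libraries 3 counts equal 0.126 to 0.264 CPM. Of 89 genes named for the flagellum of choanocytes, the cells that drive water flow, 87 had counts, and the list summed to 1781 to 2447 CPM with tryptamine at 4 h against 1937 to 2236 CPM with DMSO at 4 h. The 10 genes of the archaeocyte (stem cell) list summed to 1047 to 1838 CPM with tryptamine at 4 h and 1242 to 1594 CPM with DMSO at 4 h. For 5 contractile genes of the outer and canal epithelium the sums were 4166 to 4390 CPM and 4074 to 4501 CPM in the same order of groups, and a name search for 2 marker names of spicule-forming sclerocytes, silicatein and CTSL, found no match. These lists overlapped between tryptamine and DMSO at 4 h, and their part in the results below was not tested. In whole bodies, fewer cells of a type and less RNA per cell cannot be told apart.

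In the vehicle sponges that chose them, the 197 genes together took a visible part of the RNA at 4 h. Their summed level was 2071, 3401 and 1430.2 CPM in the 3 DMSO libraries at 1 h, 10524.5 CPM, 22335 CPM and 17928 CPM at 4 h, and 1881, 1581 and 2420 CPM after recovery. At 4 h this was 1.05%, 2.23% and 1.79% of the counts of replicates 1, 2 and 3. Replicate 1 was the lowest of the 3 DMSO 4 h libraries in 181 of the 197 genes, replicate 2 was the highest in 113 and replicate 3 in 79. The 3 DMSO 4 h libraries lay above all 6 DMSO libraries of the other times in 187 genes, against 4.07% of all tested genes, a count that the rule itself favours.

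The level was spread unevenly over the genes. Their means in DMSO at 4 h ran from 2.21 to 4583 CPM with a median of 13.4 CPM, 111 of them were at 10 CPM or more and 32 at 100 CPM or more. The 8 highest together made up 51.1% of the summed level. The smaller of the 2 folds that the rule compared ran from 3.01 to 29.6 with a median of 4.98. Just inside the threshold, c90235-g1 averaged 6.86 CPM at 4 h against 2.23 CPM at 1 h and 2.28 CPM after recovery, and c91654-g4 averaged 5.58 CPM against 0.807 and 1.84 CPM. Just outside, c7398-g1 averaged 2.35 CPM at 4 h against 0.785 CPM at 1 h, and c88315-g1 averaged 8.99 CPM at 4 h against 3.01 CPM after recovery.

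**Figure D1:**
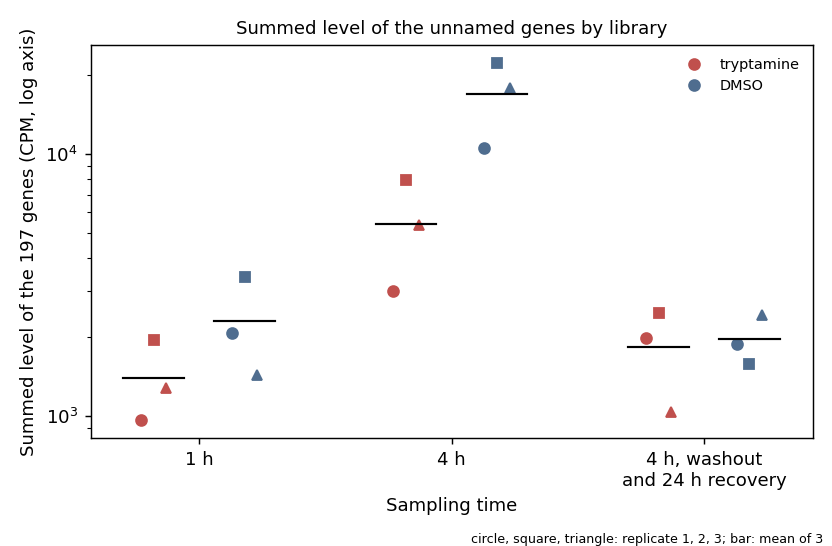
Summed level of the 197 genes (CPM, log axis) in each of the 18 libraries, by sampling time, with tryptamine left of DMSO and a bar at the mean of 3 libraries. The tryptamine 4 h libraries, at 3002, 7926 and 5357 CPM, lie above the other 6 tryptamine libraries and below the 3 DMSO 4 h libraries; the DMSO values chose the genes.

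The first comparison asked whether the genes also stood higher at 4 h in sponges given tryptamine, which had no part in their choice. Most did: 193 of the 197 had a higher fitted level at 4 h than at 1 h, with a median log2 difference of 1.56, while the median over the 24125 tested genes was -0.01 and over the 14750 tested unnamed genes -0.00. Of the 24125 tested genes, 11679 had a higher fitted level at 4 h. For the 197, the middle range of the differences, between the quartiles, was 1.04 to 2.20, and the whole range was -1.88 to 3.86. The sum over the genes was 3002, 7926 and 5357 CPM in the tryptamine 4 h libraries (5428 ± 2463 CPM, SD, n = 3) and 963, 1956 and 1280 CPM in the tryptamine 1 h libraries (1400 ± 507 CPM). The 2 sets of libraries do not overlap. In 112 of the 197 genes the 3 libraries at 4 h lay above the 3 at 1 h, or 56.9%, where 5.44% of all tested genes and 5.27% of the tested unnamed genes did so, and in 0 genes they lay below, where 10.3% of all tested genes did.

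Few of the genes passed the test singly. The quasi-likelihood test of edgeR called 13 of the 197 higher at 4 h (adjusted p under 0.05) and 0 lower, where 0.269% of all tested genes and 0.258% of the tested unnamed genes were called higher and 0.0788% of all tested genes lower. At an unadjusted p under 0.05, 144 were higher and 0 lower, where 7.44% of all tested genes were higher and 5.06% lower. DESeq2 called 86 higher and 0 lower, against 2.41% of all tested genes called higher by it, and limma-voom 1 higher and 0 lower, against 0.0166%. Same-numbered libraries of the 2 groups deviated together, and with the replicate number as a block edgeR called 42 higher, the 13 among them, and 1.12% of all tested genes. The block covered all 18 libraries, and whether the numbers also pair the DMSO libraries was not checked. All 197 genes passed the filter on low counts, which the DMSO 4 h libraries alone could satisfy, and 169 passed it in the tryptamine libraries by themselves, where edgeR called 0 higher. Leaving out replicate 1 of tryptamine 4 h raised the count to 57, and the share over all tested genes to 2.64%. Without replicate 2 of that group the count was 2 (0.0121% of all tested genes), and without replicate 3 it was 0 (0.00403%). Without replicate 1, 2 or 3 of tryptamine 1 h it was 0 each time (0.00403%, 0.00402% and 0.00404% of all tested genes). Where the count was 0, almost no gene of the table passed either. The number of positive differences in these fits stayed between 189 and 195 of 197.

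**Figure D2:**
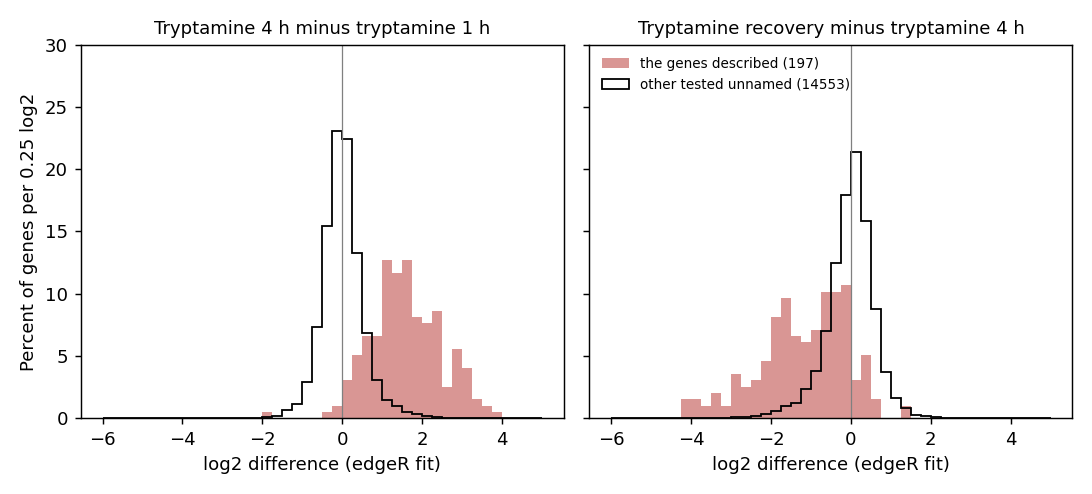
Distribution of the log2 differences between tryptamine groups (edgeR fit, percent of genes per 0.25 log2) for the 197 genes (filled) and the other tested unnamed genes (outline). At 4 h against 1 h, 193 of the 197 lie right of 0, and after recovery against 4 h, 176 lie left of 0.

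The 6 genes with the smallest p in this test were c83686-g1, c106233-g1, c101728-g2, c88925-g1, c95584-g1 and c101666-g2. In c83686-g1 the tryptamine libraries measured 4.03, 8.34 and 9.73 CPM at 4 h and 0.765, 1.70 and 1.77 CPM at 1 h. The difference was 2.49 on the log2 scale (SE 0.38, edgeR adjusted p = 0.0162), and the groups do not overlap. In c106233-g1 the values were 3.66, 16.0 and 7.72 CPM at 4 h against 1.22, 1.57 and 1.29 CPM at 1 h (log2 2.90, SE 0.44, edgeR adjusted p = 0.0162). Replicate 1 was the lowest of the 3 libraries at 4 h in both genes, though above the libraries at 1 h.

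The most abundant of the 6 was c88925-g1, with 64.4, 237 and 155 CPM at 4 h and 29.0, 35.0 and 24.9 CPM at 1 h (log2 2.51, SE 0.38, edgeR adjusted p = 0.0162). Its 3 libraries at 1 h lay close together, and those at 4 h were spread widely, with replicate 1 again the lowest. In c101728-g2 the libraries measured 4.48, 9.30 and 10.4 CPM at 4 h against 1.84, 2.59 and 1.53 CPM at 1 h (log2 2.12, SE 0.34, edgeR adjusted p = 0.0162). In c95584-g1 they measured 2.61, 7.08 and 5.71 CPM against 0.842, 1.36 and 1.29 CPM (log2 2.26, SE 0.40, edgeR adjusted p = 0.029), and in c101666-g2 23.4, 54.5 and 38.7 CPM against 7.73, 11.2 and 8.94 CPM (log2 2.20, SE 0.37, edgeR adjusted p = 0.029). None of these 3 genes overlapped between the times. The other 7 that rose were c33510-g1, c33510-g2, c78758-g1, c93076-g2, c101728-g3, c104081-g2 and c114970-g1, with log2 differences of 1.69 to 3.06. The 13 genes fall into 11 components, since c33510 and c101728 each hold 2 of them.

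**Figure D3:**
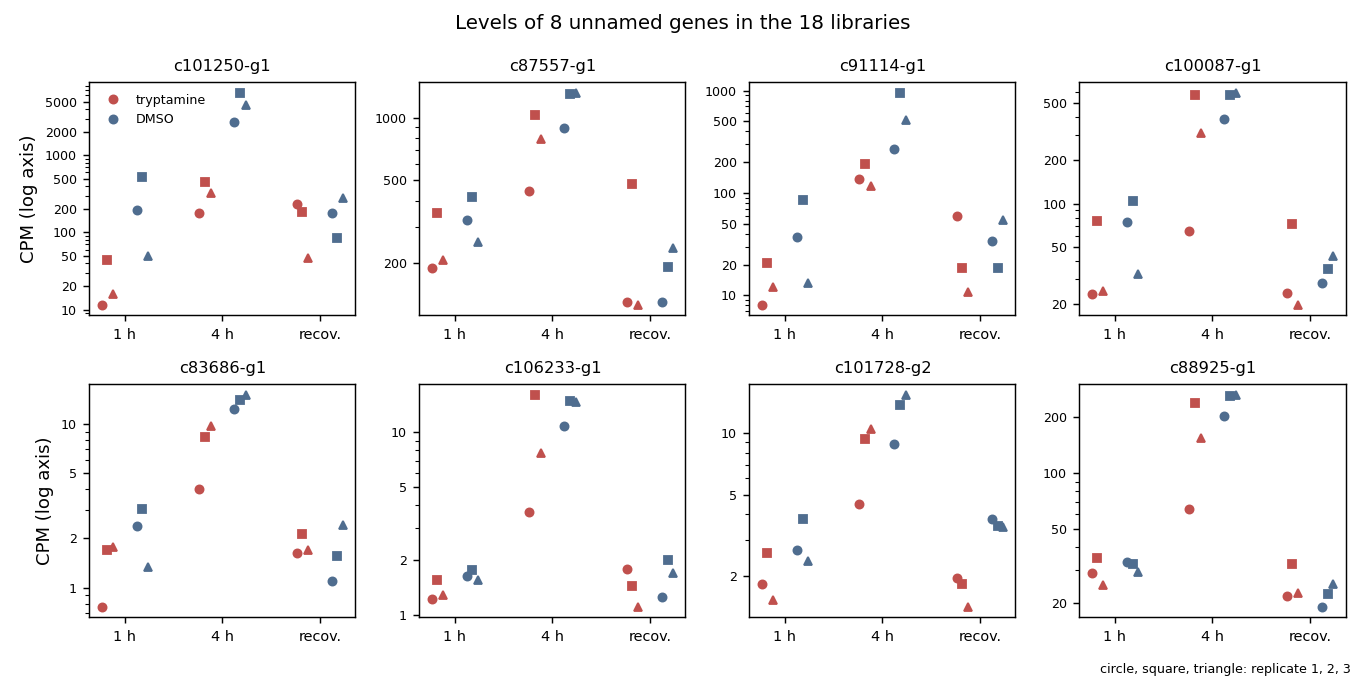
CPM (log axis, a separate scale per gene) of 8 genes in the 18 libraries, tryptamine left of DMSO at each time: in the top row the 4 with the highest mean in DMSO at 4 h, in the bottom row the 4 with the smallest p at tryptamine 4 h against 1 h. In c101250-g1 the 3 tryptamine libraries at 4 h (179, 456 and 329 CPM) lie far below the 3 DMSO libraries at 4 h (2725, 6460 and 4565 CPM), whereas in c88925-g1 the highest tryptamine library (237 CPM) lies above the lowest DMSO library (204 CPM).

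The 8 genes with the highest level in DMSO at 4 h did not pass this test, although all 8 had positive differences. The highest, c101250-g1, measured 179, 456 and 329 CPM with tryptamine at 4 h and 11.6, 44.5 and 15.9 CPM at 1 h. The log2 difference was 3.86 (SE 0.97, edgeR adjusted p = 0.0987), the largest among the 197 genes, and the 3 libraries at 4 h lay above those at 1 h. In c91114-g1 the values were 136, 193 and 118 CPM at 4 h against 8.11, 20.8 and 12.1 CPM at 1 h (log2 3.57, SE 0.87, edgeR adjusted p = 0.093). In c106769-g1 they were 37.1, 45.4 and 41.5 CPM against 3.37, 11.8 and 6.69 CPM (log2 2.60, SE 0.66, edgeR adjusted p = 0.1). These genes had clear gaps between the times and a wide spread between the libraries at 1 h.

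In c100087-g1 the tryptamine libraries measured 64.2, 571 and 312 CPM at 4 h, against 23.6, 75.4 and 24.6 CPM at 1 h (log2 3.08, SE 0.83, edgeR adjusted p = 0.119). Replicate 1 at 4 h lay below replicate 2 at 1 h, so that the groups overlap. In c87557-g1 they measured 446, 1034 and 793 CPM against 191, 351 and 207 CPM (log2 1.73, SE 0.52, edgeR adjusted p = 0.158). The log2 differences of c88304-g1, c98691-g1 and c102616-g1 were 1.74, 2.42 and 1.00, with edgeR adjusted p of 0.199, 0.22 and 0.186. With the replicate number as a block, c87557-g1, c100087-g1 and c88304-g1 passed, at edgeR adjusted p of 0.0386, 0.0449 and 0.0464. In each of these 3, same-numbered libraries at 1 h and 4 h kept replicate 2 highest.

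A few genes owed their choice largely to a single vehicle library, and their tryptamine values were scattered. In c82644-g1, 68.7% of the DMSO 4 h sum came from replicate 3, which measured 27.3 CPM. Its tryptamine libraries measured 1.99, 0.136 and 29.7 CPM at 1 h, 0.747, 1.70 and 5.37 CPM at 4 h, and 0.625, 22.4 and 0.149 CPM after recovery. The high value moved between replicates 3 and 2, and the log2 difference at 4 h against 1 h was -1.88 (SE 1.60, edgeR adjusted p = 0.708) and turned to 1.37 without replicate 3 of tryptamine 1 h. In c89108-g2, 65.2% came from replicate 2 and the tryptamine log2 difference was 3.08 (SE 1.11, edgeR adjusted p = 0.234). In c111888-g1, 59.8% came from replicate 2, and the tryptamine 4 h libraries measured 0, 6.94 and 2.94 CPM. Its log2 difference of 3.39 (SE 1.11) passed with the replicate block at an edgeR adjusted p of 0.0339, and not without the block (edgeR adjusted p = 0.186). The other 3 genes with negative differences were c5647-g1, c18683-g1 and c51399-g1.

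The second comparison set tryptamine recovery against tryptamine 4 h, and asked whether the levels had returned a day after washout. Of the 197 genes, 176 were lower after recovery, with a median log2 difference of -1.07. Of the 24125 tested genes 11109 were lower, and their median was 0.04. The sum over the genes was 1992, 2477 and 1033 CPM after recovery and 3002, 7926 and 5357 CPM at 4 h, without overlap. In edgeR, 33 genes in 27 components passed as lower and 0 as higher, where 3.45% of all tested genes and 3.29% of the tested unnamed genes were called lower and 1.4% of all tested genes higher. At an unadjusted p under 0.05, 96 were lower and 1 was higher, where 11.4% of all tested genes were lower and 9.07% higher. DESeq2 called 63 lower and 1 higher, against 6.31% and 2.19% of all tested genes, and limma-voom 37 lower and 0 higher, against 3.03% and 1.29%. The count of lower genes was 57 without replicate 1 of tryptamine 4 h (5.17% of all tested genes), 8 without replicate 2 (0.466%) and 18 without replicate 3 of that group (1.83%). It was 28, 9 and 14 without replicates 1, 2 and 3 of tryptamine recovery (2.57%, 0.564% and 2.08% of all tested genes). It was 14 in the tryptamine libraries alone (0.765%) and 2 in the 6 libraries compared alone (0.0548%). In 67 genes (34.0%) the 3 libraries at 4 h lay above the 3 after recovery, against 7.3% of all tested genes.

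This comparison and the first share the 3 tryptamine 4 h libraries, so that a gene high in them leans toward a rise in the first and a fall in this one. The smallest adjusted p belonged to c95584-g1, which measured 0.391, 0.991 and 0.446 CPM after recovery and 2.61, 7.08 and 5.71 CPM at 4 h (log2 -3.21, SE 0.44, edgeR adjusted p = 0.00162). The next were c101728-g2, with 1.95, 1.83 and 1.41 CPM after recovery (log2 -2.34, edgeR adjusted p = 0.00208), and c88925-g1, with 21.8, 32.5 and 22.7 CPM (log2 -2.74, edgeR adjusted p = 0.0028). For c83686-g1 and c106233-g1 the log2 differences were -2.14 and -2.82. In these 5 genes the libraries after recovery and at 1 h overlapped. Of the 8 highest genes, c100087-g1 passed, with 23.8, 72.1 and 19.9 CPM after recovery against 64.2, 571 and 312 CPM at 4 h (log2 -3.22, SE 0.83, edgeR adjusted p = 0.0451), and its groups overlap. In c101250-g1, by contrast, the recovery libraries measured 234, 183 and 47.3 CPM and the 4 h libraries 179, 456 and 329 CPM, which overlap (log2 -1.19, SE 0.87, edgeR adjusted p = 0.482).

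The third comparison set tryptamine recovery against tryptamine 1 h. The summed levels of the 197 genes overlapped, at 1992, 2477 and 1033 CPM after recovery and 963, 1956 and 1280 CPM at 1 h. The median log2 difference was 0.40, against 0.02 over all tested genes, and 146 genes were higher after recovery, as were 12751 of the 24125 tested genes. In edgeR, 2 genes passed as higher and 0 as lower, where 0.0953% of all tested genes were called higher and 0.195% lower. At an unadjusted p under 0.05, 30 were higher and 5 lower, where 5.71% of all tested genes were higher and 6.61% lower. DESeq2 called 10 higher and 1 lower, against 0.704% and 1.58% of all tested genes. With limma-voom the counts were 0 in both directions, against 0.0539% higher and 0.211% lower.

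The 2 genes that rose, named after their values were seen, also had low ratios of tryptamine to DMSO at 4 h. In c94188-g1 the tryptamine libraries measured 25.1, 27.7 and 12.9 CPM after recovery and 5.36, 8.03 and 5.72 CPM at 1 h (log2 1.76, SE 0.33, edgeR adjusted p = 0.0333). In c112118-g1 they measured 8.36, 5.03 and 1.93 CPM after recovery and 0, 0.681 and 0.403 CPM at 1 h (log2 3.75, SE 0.66, edgeR adjusted p = 0.0232). Both genes lay higher after recovery than at 4 h, where tryptamine libraries averaged 14.0 and 1.78 CPM. Without replicate 1 or 2 of tryptamine recovery the count of higher genes was 0 (0.0121% and 0% of all tested genes). It was also 0 without replicate 2 or 3 of tryptamine 1 h (0.00805% and 0%). It was 1 without replicate 1 of tryptamine 1 h (0.141% of all tested genes). Without replicate 3 of tryptamine recovery it was 5, and the share over all tested genes rose as well, to 1.01%.

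Tryptamine and DMSO can be set side by side at 4 h only as description, since the DMSO 4 h values chose the genes and a low ratio to them is favoured by that choice. The mean with tryptamine was under that with DMSO in 186 of the 197 genes, and the ratio of tryptamine to DMSO had a median of 0.257, quartiles of 0.148 and 0.442, and a range of 0.0307 to 1.49. The 3 tryptamine libraries lay below the 3 DMSO libraries in 144 genes (73.1%), where 6.15% of all tested genes and 7.33% of the tested unnamed genes did so, and above them in 0 genes, where 7.18% of all tested genes did. The summed level was 3002, 7926 and 5357 CPM with tryptamine and 10524.5 CPM, 22335 CPM and 17928 CPM with DMSO. Replicate 1 was the lowest library in both groups, and the replicate 2 library with tryptamine stayed below the replicate 1 library with DMSO.

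The values at the other times are likewise description only, since the rule also asked for low DMSO levels at 1 h and after recovery and so favours a smaller gap there. At 1 h the summed level averaged 1400 ± 507 CPM in tryptamine libraries and 2301 ± 1005 CPM in DMSO libraries (SD, n = 3 each), and in 34 genes (17.3%) the tryptamine libraries lay below the DMSO libraries, against 4.42% of all tested genes. After recovery the sums averaged 1834 ± 735 CPM with tryptamine and 1961 ± 425 CPM with DMSO. The tryptamine libraries lay below the DMSO libraries in 25 genes then (12.7%), close to the 11.3% among all tested genes, and above them in 2, against 12.4% of all tested genes.

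**Figure D4:**
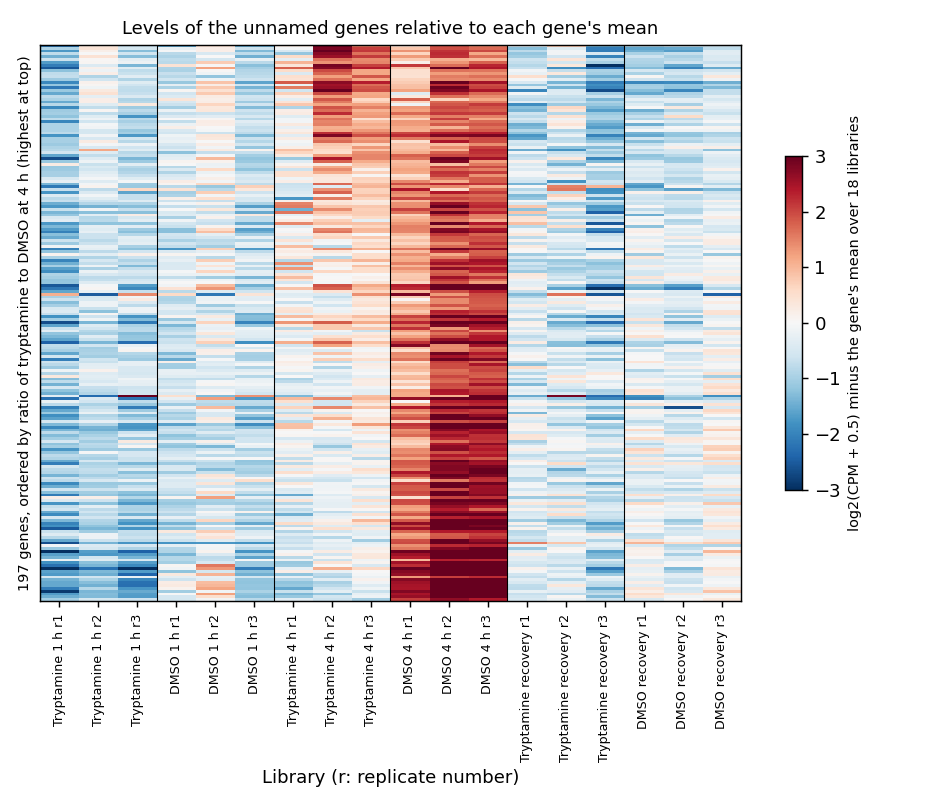
Heat map of the 197 genes (rows, ordered by the ratio of tryptamine to DMSO at 4 h, highest at the top) in the 18 libraries (columns), as log2(CPM + 0.5) minus the mean of the gene over the libraries. The DMSO 4 h columns are high throughout because they chose the genes, and the tryptamine 4 h columns are high mainly in the upper rows, with replicate 1 paler than replicates 2 and 3.

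The gap was also read in lists chosen on the DMSO libraries but for 1 of the 4 h replicates. The level of the left-out library was then read, since that library had not chosen the list. The rest of the DMSO 4 h group still chose each list, as did the DMSO libraries of the other times. A deviation shared by the DMSO 4 h libraries is therefore still selected for, and these lists cannot show the gap free of the choice. The labels also do not say that the left-out library was a separate culture. Without replicate 1 the rule found 242 genes, without replicate 2 it found 182, and without replicate 3 it found 177. Of these, 195, 169 and 165 were also in the main list, so the lists are largely the same genes. The median level in the left-out library was 6.33 CPM for replicate 1, 14.5 CPM for replicate 2 and 18.4 CPM for replicate 3, while the median of the tryptamine 4 h means over the same lists was 3.26, 3.27 and 3.73 CPM. The median ratio of tryptamine to the left-out library was 0.51 for replicate 1, 0.238 for replicate 2 and 0.236 for replicate 3. The left-out library lay above all 3 tryptamine 4 h libraries in 164 genes (67.8%), 159 genes (87.4%) and 149 genes (84.2%) of the 3 lists. Over all tested genes the same holds for 25.7% with replicate 1, 17.1% with replicate 2 and 27.2% with replicate 3. The ratio to the left-out library was nearest to 1 for replicate 1.

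The same rule was applied to the tryptamine groups for the reverse view. It chose 91 unnamed genes that stood highest at 4 h with tryptamine, against the 197 with DMSO. Of these 91, 51 were among the 197, which is 56.0% of the 91 and 25.9% of the 197. In the 51 shared genes the median of the 4 h means was 15.0 CPM with tryptamine and 39.0 CPM with DMSO, and DMSO was higher in 42. In the other 40, chosen on tryptamine alone, the medians were 13.2 CPM with tryptamine and 7.13 CPM with DMSO, and DMSO was higher in 4. Over the 91 the median ratio of tryptamine to DMSO was 1.00. The tryptamine 4 h values chose the 91 genes and favour a high ratio, and 51 of them were also chosen on DMSO. The median of 1.00 therefore cannot show whether the list leaned toward a treatment. The other 40 met the rule with tryptamine and not with DMSO, which favours a higher level with tryptamine. At 1 h and after recovery the same thresholds found few unnamed genes: 7 and 13 with tryptamine, and 13 and 2 with DMSO.

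The 197 genes varied widely in this ratio. In 93 genes the ratio was under 0.25, in 61 it was 0.25 to under 0.5, and in 43 it was 0.5 or more, with 11 at 1 or above. The median of the DMSO 4 h means was alike in the 3 classes, at 13.3, 17.7 and 12.8 CPM. The median log2 difference of tryptamine 4 h against 1 h was 1.28 in the first class, 1.45 in the second and 2.34 in the third, and the genes called lower after recovery numbered 1, 6 and 26. Because the tryptamine 4 h level enters both the ratio and these differences, the order of the classes is in part built in.

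At the low end of the ratio, c95887-g2 had 0.299, 0.148 and 0 CPM with tryptamine at 4 h and 3.78, 5.97 and 4.78 CPM with DMSO. Those tryptamine levels are at or near the level of 3 counts. Among the most abundant genes, c101250-g1 averaged 322 ± 139 CPM in tryptamine libraries at 4 h and 4583 ± 1867 CPM in DMSO libraries (SD, n = 3 each), and c106769-g1 averaged 41.3 ± 4.14 CPM and 506 ± 217 CPM in the same order. In c106769-g1 the highest tryptamine library measured 45.4 CPM and the lowest DMSO library 291 CPM. At the high end, c51302-g1 had 5.30, 37.3 and 14.3 CPM with tryptamine and 6.33, 18.2 and 13.8 CPM with DMSO, groups that overlap. Per kilobase of transcript, the scale on which genes can be compared, c101250-g1 stood at 551 CPM per kb with tryptamine and 7862 CPM per kb with DMSO, c87557-g1 at 674 and 1041 CPM per kb, and c100087-g1 at 474 and 775 CPM per kb. With tryptamine c87557-g1 had the higher level of the 3 and with DMSO c101250-g1 did.

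**Figure D5:**
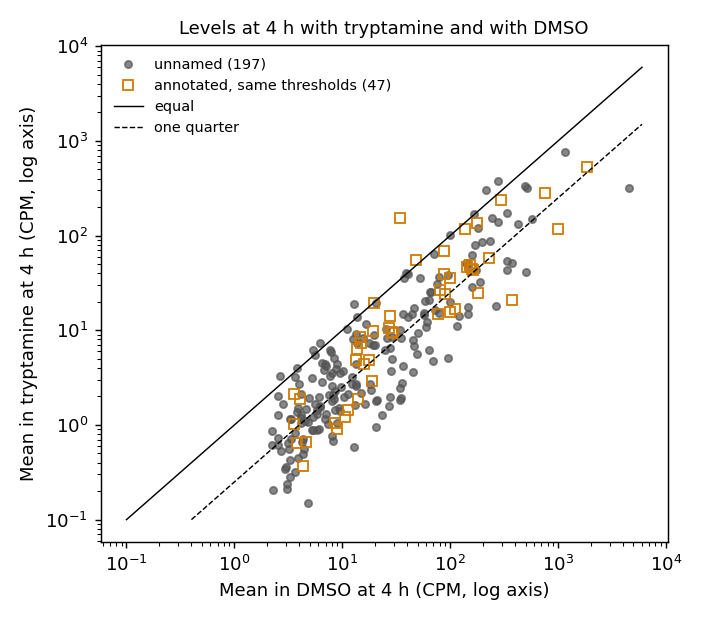
Mean level at 4 h with tryptamine (vertical, CPM, log axis) against DMSO (horizontal, CPM, log axis) for the 197 unnamed genes (filled) and for 47 annotated genes that meet the same DMSO thresholds (open squares). The solid line marks equal levels and the dashed line a ratio of 0.25; 93 of the unnamed genes lie under the dashed line and 11 on or above the solid line, and the choice on DMSO favours points below it.

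The genes also differed, in description, in features that the rule did not name. Whether these features make it easier to meet the thresholds was not tested. Their transcripts were short, with a median summed length of 327 bases (range 201 to 3927), where the 7311 other unnamed genes at 2 CPM or more in DMSO at 4 h had a median of 516 bases. Annotated genes had the same order, with a median of 890 bases in the 47 that met the thresholds and 1799 bases in the 8549 at 2 CPM or more. Shortness was therefore not particular to the unnamed genes. A single assembled transcript was listed for 163 of the 197 (82.7%), against 5052 of those 7311 (69.1%). The genes lay in 166 components, of which 29 held 2 or more of them, 60 genes in all, and genes of one component may be pieces of the same transcript and are not independent. For 121 genes the component held no other gene of the table. A component with an annotated gene was shared by 13 of them, or 6.60%, against 18.4% of the 7311. The thresholds were met by 2.62% of the 7508 unnamed genes at 2 CPM or more and by 0.55% of the 8549 annotated ones. These 2 classes also differ in length, and the part of length in the 2 shares was not tested.

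The annotated neighbours within components mostly met the same thresholds. The 13 genes shared 10 components with 12 annotated genes, and 10 of those 12 were at least 3 times higher in DMSO at 4 h than at the other times. Of all annotated genes at 2 CPM or more, 0.55% met the thresholds. Genes of one component may be pieces of the same transcript, so likeness between neighbours is favoured by the choice. One pair was c80379-g1 and c80379-g2, the second named for indoleamine 2,3-dioxygenase, which in vertebrates opens the ring of tryptophan. The unnamed c80379-g1 had 16.1, 13.1 and 15.9 CPM with tryptamine and 34.8, 66.8 and 70.4 CPM with DMSO at 4 h, and c80379-g2 had 43.8, 37.5 and 48.2 CPM with tryptamine and 105, 189.9 and 198 CPM with DMSO. Their ratios were 0.262 and 0.263, nearly the same.

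In component c91600 the unnamed c91600-g1 and c91600-g3 averaged 7.81 and 54.4 CPM with tryptamine at 4 h and 45.5 and 335 CPM with DMSO. Their neighbour c91600-g2, named for the catalytic domain of poly(ADP-ribose) polymerases, enzymes that attach ADP-ribose to proteins, averaged 14.8 CPM and 76.4 CPM. All 3 had a ratio under 0.25. In component c104149, c104149-g4 averaged 6.21 CPM with tryptamine and 24.9 CPM with DMSO, beside TRAF2 c104149-g1, an adaptor of tumour necrosis factor receptors in vertebrates, at 532 and 1875 CPM. In component c93076 the unnamed c93076-g2, one of the 13 that rose with tryptamine at 4 h against 1 h, lay beside a gene named for a GMC oxidoreductase, c93076-g3, which also rose (log2 1.83, SE 0.36, edgeR adjusted p = 0.044). The remaining annotated neighbours that met the thresholds were RNF213 c40293-g2 and c96402-g2, large ubiquitin ligases in vertebrates, ANK1,ANK3,ANK2 c101728-g1, a cytoskeletal adaptor, chitin synthases c102134-g1 and c102134-g4, which make the polymer chitin, and c91654-g1, named for tetratricopeptide repeats. Although c101728-g2 and c101728-g3 were among the 13 that rose, their neighbour c101728-g1 was not called (log2 0.86, SE 0.52, edgeR adjusted p = 0.542). Neighbours that missed the thresholds were the chitin synthase c102134-g3 (30.5 CPM in DMSO at 4 h and 25.5 CPM after recovery) and c104711-g2, named for ADAM23 (456 CPM in DMSO at 4 h and 168 CPM at 1 h).

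In all, 47 annotated genes met the DMSO thresholds, and they give the named counterpart of the unnamed genes. With tryptamine, 45 of them were higher at 4 h than at 1 h (median log2 1.16), edgeR called 3 higher (0.269% of all tested genes were) and 0 lower, and 12 fell after recovery against 4 h (3.45% of all tested genes did). With tryptamine, 36 of the 47 lay below DMSO at 4 h without overlap, against 6.15% of all tested genes, and here too the DMSO 4 h values chose the genes and favour that count. The 8 with the highest DMSO 4 h level were TRAF2 c104149-g1, synoviolin c97836-g1, a ubiquitin ligase of the endoplasmic reticulum in vertebrates (117 CPM with tryptamine and 996 CPM with DMSO at 4 h), reverse transcriptase-related c102297-g2 (278 and 759 CPM), TRIM2 c87469-g1, also a ubiquitin ligase (20.8 and 373 CPM), PIK3C2A,PIK3C2B,PIK3C2G c103840-g1, a lipid kinase (238 and 298 CPM), the poly(ADP-ribose) polymerase domain genes c98394-g1 (57.9 and 230.3 CPM) and c100043-g1 (25.04 and 183 CPM), and sulfatase-modifying factor c104500-g1 (135 and 179 CPM). Of these 8, c103840-g1 rose at 4 h against 1 h with tryptamine (log2 1.35, SE 0.24, edgeR adjusted p = 0.029) and fell after recovery (log2 -1.52, edgeR adjusted p = 0.00353). By name, the thresholds were met by 7 of 33 genes named RNF213, 5 of 15 chitin synthases, 2 of 3 indoleamine dioxygenases, 4 of 40 poly(ADP-ribose) polymerase or ADP-ribose genes, 2 of 31 TRAF genes, 1 of 5 GMC oxidoreductases, 1 of 55 TRIM genes and 2 of 214 ankyrin genes. They were also met by 10 of 396 genes whose names hold RNF, TRIM, CUL, ubiquitin or the letters ring. That search missed synoviolin c97836-g1 and also takes words that only contain those letters, so it does not count ubiquitin ligases. Over all annotated genes the thresholds were met by 47 of 9809, or 0.479%. These groupings were made after the list was seen, overlap in part and were not tested.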

How the data were processed

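Per the file headers, the authors ran featureCounts 2.1.1 to obtain the deposited gene counts, which are whole read pairs with no scaling. Strand was ignored, both ends had to map, and chimeric or multiply mapping pairs were dropped. Reads shared by near-identical copies are therefore lost, and the levels of such genes are uncertain. Alignment used STAR per the submitters' processing notes, with a version not given in the sources used here. Transcript lengths (the deposited length column, in bases) come from the same table. The annotation is an assembled transcriptome, and no genome or transcript sequence was used here.

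CPM were computed from column totals. With R 4.3.3, filterByExpr by group left 24125 genes, TMM factors were 0.854 to 1.09, and 1 robust quasi-likelihood model of edgeR 4.0.16 was fitted to the 18 libraries with 6 group means (12 residual degrees of freedom, common biological coefficient of variation 21.0%). Contrasts between tryptamine groups were tested two-sided, with p-values adjusted by Benjamini-Hochberg across the tested genes and a threshold of 0.05. A check on simulated data came before. Its genes all had the same relative spread and its libraries were independent, unlike these data, so it does not show how the test performs here. Comparisons that involve DMSO were not tested.

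Replicate numbers were taken to pair libraries where each pair of same-numbered libraries had deviations from its group means correlated above 0.1. This held for tryptamine 4 h with 1 h (0.249 to 0.435) and recovery with 1 h (0.167 to 0.211), and comes from the data, not the labels. The variance between replicate counts was 9.53 to 57.4 times the sampling variance (chi-square over degrees of freedom, 18 pairs), so no library was a copy.

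Alternatives were DESeq2 1.42.0, limma-voom (limma 3.58.1), median-of-ratios scaling, other filters, smaller fits, the block and each library left out. Genes named were the 8 highest in DMSO at 4 h, the 6 of smallest p among those called higher, none being lower, the 3 resting most on 1 library, those nearest the threshold and the 8 highest annotated ones; others were named after their values were seen. The genes and lists were chosen with earlier results of these data known.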

Additional observations from a re-analysis of the deposited data

How the results depend on the processing

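The rule found 355 genes at 2 times and 130 at 4 times in place of 3 times, and 177 to 242 with 1 DMSO library left out. For tryptamine 4 h against 1 h, the genes called higher numbered 86 with DESeq2, 1 with limma-voom and 8 without a filter (0.173% of all genes tested there). They numbered 0 in the tryptamine libraries alone (0.0044%) and 4 in a fit of those 2 groups (0.0278%). With the replicate block they numbered 42, and with 1 library left out 0 to 57. In each of these settings 0 were lower. The 13 calls were kept with DESeq2, with median-of-ratios scaling and with the block. The median log2 difference ran from 1.34 to 1.89 with 1 library left out. For recovery against 4 h, genes called lower numbered 63 with DESeq2, 14 in the tryptamine libraries alone, 2 in the compared groups alone and 8 to 57 with 1 library left out, and genes called higher numbered 1 with DESeq2 and 0 to 1 with 1 library left out. There the numbers did not pair the libraries (correlations 0.0585 to 0.14), and the replicate block gave 56 lower (5.27% of all tested genes). For recovery against 1 h, genes called higher numbered 10 with DESeq2, 0 with limma-voom (0.0539%) and 1 without a filter (0.0433% of all genes tested there). They numbered 0 in the tryptamine libraries alone (0% of all genes tested there) and 0 in a fit of those 2 groups (0%). With the replicate block they numbered 3 (0.344%), and with 1 library left out 0 to 5. Genes called lower numbered 1 with DESeq2 and 0 in each of the others. The cause of these differences was not tested. The log2 difference of c82644-g1 was 1.37 without replicate 3 of tryptamine 1 h, its highest value with 1 library left out, and -2.85 without replicate 3 of tryptamine 4 h, its lowest. Over the genes named by rule, 294 other values kept their side, 26 passed the threshold newly and 53 lost it. Depth limits genes near 0.264 CPM, the level of 3 counts in the smallest library, and this floor covers counting error only.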
